A study of Mus musculus with 16 samples.

Results

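The SLC25 genes, which encode the family of mitochondrial solute carriers, were followed in the rotator cuff muscle of 2 mouse strains with and without surgery. Every gene of the count table whose symbol is Slc25a followed by a digit was taken, which gave 38 of 11710 genes, and all 38 entered the test. Messenger RNA was sequenced in 16 samples, 4 in each of 4 groups. The groups were C57BL/6J mice (BL6 below) without operation, C57BL/6J mice after the tendon of the muscle was cut and its nerve supply removed, and MRL/MpJ mice (MRL below) in the same states. No transgene, deletion or drug is named for any group, and the age of the mice and the time from surgery to collection are not given in the sources used here. The sample labels name the supraspinatus and the series text names the infraspinatus, so the tissue is called rotator cuff muscle. The labels do not say that the samples came from separate animals, so p-values measure the spread between these samples, which may be technical in part.

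SLC25 carriers are small membrane proteins, most of them in the inner membrane of the mitochondrion, that exchange or co-transport nucleotides, phosphate, carboxylates, amino acids and cofactors between the cytosol and the matrix. Muscle depends on them for ATP export, for the malate-aspartate shuttle that carries reducing equivalents inward, and for the import of fatty acids as acylcarnitines. They are made in the cytosol and enter the inner membrane by the TIM22 route. A few genes of the family work elsewhere: Slc25a17 encodes a peroxisomal carrier and Slc25a46 a protein of the outer membrane. C57BL/6J is the standard laboratory strain, and MRL/MpJ is a strain studied for its healing of ear wounds.

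Total counts ran from 24323862 to 43552964 per sample, so 3 counts correspond to at most 0.123 CPM (CPM are counts scaled to a common library size), and the lowest group mean of any carrier gene was 1.92 CPM. Markers of muscle fibres were present in every library, with 9 of 9 listed genes tested and a summed level of 129576 to 163458 CPM in unoperated BL6, 61092 to 159791 in operated BL6, 119274 to 133841 in unoperated MRL and 79546 to 104928 in operated MRL. The adipocyte markers rose together, 8 of 8 tested in each strain, from sums of 252 to 336 CPM to 1358 to 2363 in BL6 and from 295 to 417 to 1490 to 2044 in MRL. Leukocyte markers rose in 5 of 8 in BL6 and 1 of 8 in MRL, and fibroblast markers in 3 of 6 and 0 of 6. Endothelial markers rose in 4 of 5 and 5 of 5, and Schwann cell markers in 4 of 4 and 3 of 4. The share that rose among all genes tested was 35.1% in BL6 and 22.3% in MRL. Of the listed markers, Lep, Myf5, Calcr and Slc4a1 were not analysed here. In bulk tissue, fewer cells of a type and less RNA per cell cannot be told apart, and the part of these marker changes in the carrier results was not tested.

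Among the libraries, 3 stood apart from their groups. Operated BL6 replicate 4 had the lowest fibre sum (61092 CPM) and the highest fibroblast and adipocyte sums (7477 and 2363 CPM). Unoperated MRL replicate 1 had a leukocyte sum of 312 CPM, the highest of its group. In operated MRL replicate 4, mitochondrially encoded genes took 11.8% of the counts, against 20.1% to 24.9% in the other operated MRL samples, and its endothelial sum of 292 CPM was the lowest of its group. The mitochondrially encoded share was 12.2% to 14.2% in unoperated and 17.4% to 23.8% in operated BL6, and at most 11.6% in unoperated MRL. With the mitochondrially encoded genes left out of the counts, 21 carrier genes were called after surgery in BL6 and 18 in MRL. With them the counts were 20 and 18. That setting changes the scaling and the genes tested, and any other part of this share in the carrier results was not tested. With the 3 libraries that stood apart left out together, as an alternative added after the data were seen, the number of carrier genes called after surgery was 19 in BL6 (6 higher, 13 lower) and 23 in MRL (7 higher, 16 lower). Over all 11709 genes tested, the same setting called 7914 in BL6 and 7303 in MRL, against 7950 and 5272 with all samples. The higher count in MRL was therefore not particular to the carriers. Without these 3 libraries Slc25a10 and Slc25a30 lost their BL6 call, and Slc25a10, Slc25a11, Slc25a29, Slc25a33 and Slc25a53 passed in MRL.

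The family was dominated by 1 gene. Slc25a4, which encodes the muscle form of the ATP/ADP translocase, had a mean level of 2284 CPM per kb of exon over all samples and supplied 59.7% to 69.8% of all carrier counts. On the same per-length scale Slc25a11, the oxoglutarate/malate carrier, stood at 178, Slc25a3, the phosphate carrier, at 168, Slc25a12, a calcium-regulated aspartate/glutamate carrier, at 68.2, and Slc25a39, a carrier needed for mitochondrial glutathione import, at 25.5. The lowest was Slc25a53 at 0.341 CPM per kb. All 38 together took 0.563% to 0.944% of the counts of a sample, with the lowest share in operated BL6 replicate 4. The plot of levels per length shows that the gap between Slc25a4 and the next carriers was present in all 4 groups.

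**Figure D1:**
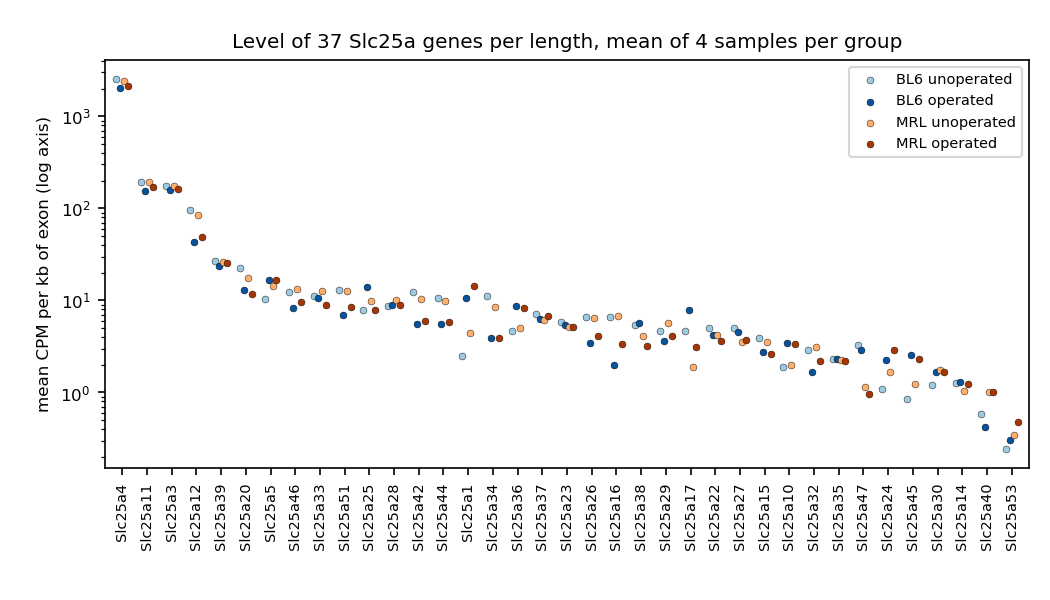
Mean level of 37 of the 38 Slc25a genes in CPM per kb of exon (log axis), 1 point per group of 4 samples, ordered from left to right by the mean over all samples. Slc25a4 lies at 2016 to 2572 CPM per kb in the 4 groups, above Slc25a11 at 153 to 195 and Slc25a3 at 160 to 176.

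The counting program and its use of strand are not given in the sources used here, which leaves some carrier values uncertain. In the GENCODE M21 annotation 5 of the 38 genes have a stretch of at least 200 bases with at least 95% identity elsewhere: Slc25a5 in the processed pseudogenes Gm5529 and Gm5560, Slc25a40 in Gm5066, Slc25a36 in Gm13217, Slc25a37 in 2 other loci, and Slc25a12 in 247 bases of Adpgk. Slc25a35 shares 31.3% of its exon bases with Rangrf on the opposite strand, Slc25a33 shares 14.9% with the antisense transcript Gm13068, and Slc25a11 shares 8.92% with Rnf167.

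Surgery was compared within each strain. In BL6, 20 of the 38 genes passed the test at an adjusted p under 0.05 (8 higher, 12 lower), a share of 52.6% against 67.9% of all 11709 genes tested (35.1% higher, 32.8% lower). In MRL, 18 passed (5 higher, 13 lower), a share of 47.4% against 45% of all genes tested (22.3% higher, 22.7% lower). The share called among the carriers was therefore below the background in BL6 and near it in MRL. The median log2 fold change of the 38 genes was -0.18 in BL6 and -0.19 in MRL, beside 0.04 and 0.01 over all genes tested.

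In total 16 carrier genes passed in both strains, which is 80% of the BL6 calls and 88.9% of the MRL calls, and each had the same direction in both. Over all genes tested, 4783 passed in both, which is 60.2% of the BL6 calls and 90.7% of the MRL calls, and 99.8% of them had the same direction. Of these, 5 rose: Slc25a1, Slc25a17, Slc25a24, Slc25a36 and Slc25a45. The other 11 fell: Slc25a12, Slc25a15, Slc25a16, Slc25a20, Slc25a26, Slc25a32, Slc25a34, Slc25a42, Slc25a44, Slc25a46 and Slc25a51. Slc25a5, Slc25a10, Slc25a30 and Slc25a40 passed in BL6 and not in MRL, 2 genes, among them Slc25a38, in MRL and not in BL6, and 16 genes passed in neither. The genes that fell include carriers of amino acids, acylcarnitine and cofactors. Of the 3 tested carriers that serve ATP synthesis and the 2 for iron, Slc25a5 alone passed, in BL6.

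**Figure D2:**
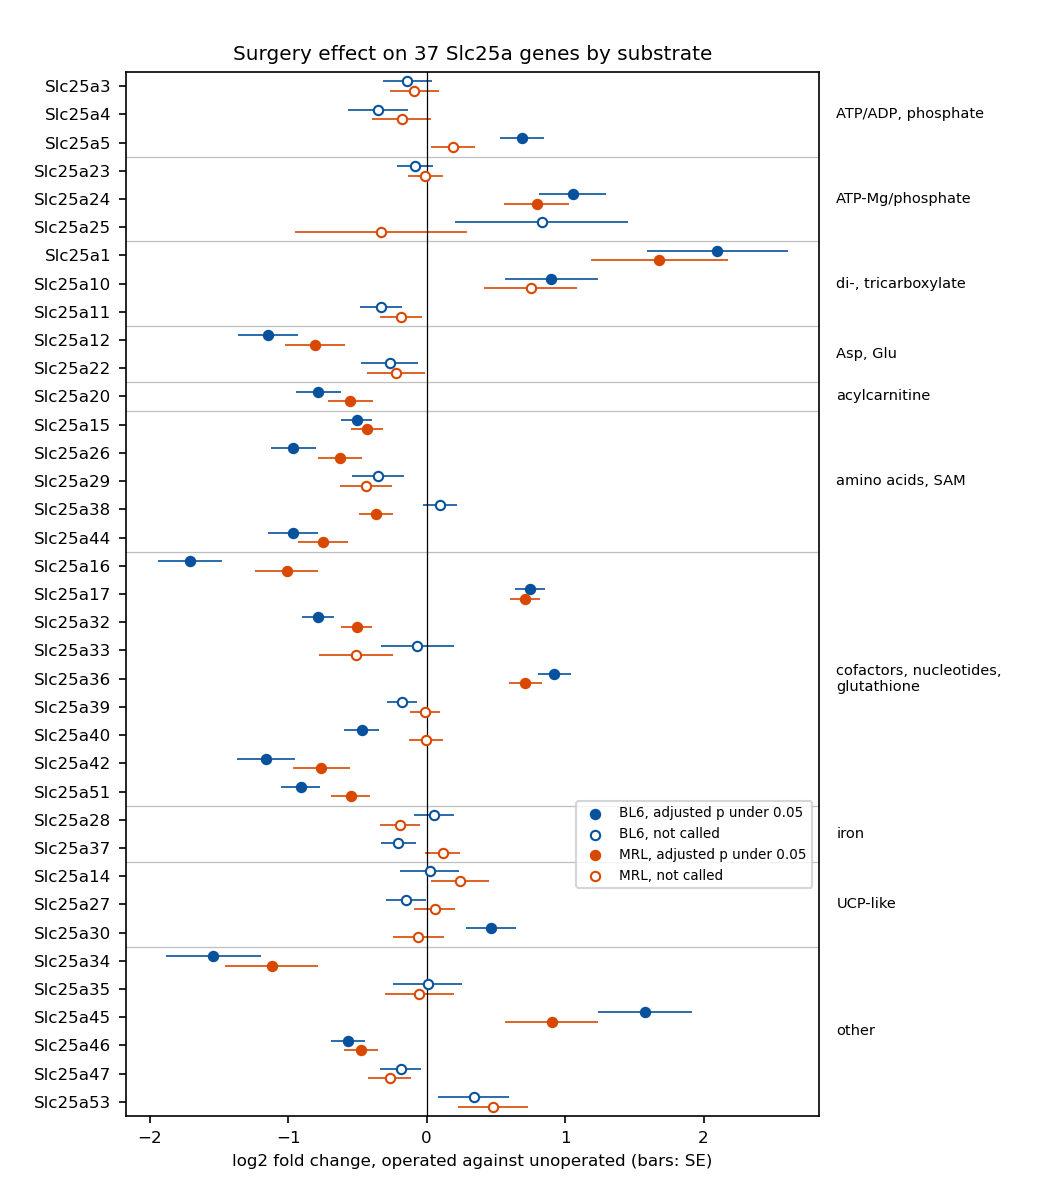
Log2 fold change of 37 of the 38 Slc25a genes, operated against unoperated, with its standard error, in BL6 (blue) and MRL (orange), grouped by the substrate of the carrier. Filled points passed an adjusted p under 0.05; Slc25a1 lies farthest to the right (2.10 in BL6, 1.68 in MRL) and Slc25a16 farthest to the left in BL6 (-1.71).

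To show the start of the genes that moved most after surgery, the 250 bases before the RefSeq start (GRCm38.p6) are printed for the 3 that rose most and the 3 that fell most in BL6. Letters matching a searched motif are in capitals. The 3 genes that rose were Slc25a1 (chr16:17928220-17928469, minus strand), Slc25a45 (chr19:5877572-5877821, plus strand) and Slc25a24 (chr3:109122899-109123148, plus strand).
Slc25a1: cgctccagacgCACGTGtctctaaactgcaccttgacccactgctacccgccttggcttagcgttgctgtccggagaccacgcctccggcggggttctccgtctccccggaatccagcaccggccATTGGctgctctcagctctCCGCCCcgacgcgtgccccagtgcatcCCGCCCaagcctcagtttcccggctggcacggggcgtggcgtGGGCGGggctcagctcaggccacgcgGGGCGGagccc
Slc25a45: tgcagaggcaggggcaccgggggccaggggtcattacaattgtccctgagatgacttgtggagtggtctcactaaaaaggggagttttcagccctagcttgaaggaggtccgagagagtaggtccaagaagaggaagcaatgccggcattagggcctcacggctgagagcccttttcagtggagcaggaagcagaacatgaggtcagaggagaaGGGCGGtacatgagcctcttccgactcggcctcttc
Slc25a24: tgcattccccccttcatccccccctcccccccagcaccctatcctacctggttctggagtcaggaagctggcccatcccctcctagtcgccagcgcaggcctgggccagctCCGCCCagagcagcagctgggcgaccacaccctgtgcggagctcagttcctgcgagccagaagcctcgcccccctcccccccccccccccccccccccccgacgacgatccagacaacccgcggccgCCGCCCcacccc
The 3 that fell were Slc25a16 (chr10:62920383-62920632, plus strand), Slc25a34 (chr4:141623835-141624084, minus strand) and Slc25a42 (chr8:70212282-70212531, minus strand).
Slc25a16: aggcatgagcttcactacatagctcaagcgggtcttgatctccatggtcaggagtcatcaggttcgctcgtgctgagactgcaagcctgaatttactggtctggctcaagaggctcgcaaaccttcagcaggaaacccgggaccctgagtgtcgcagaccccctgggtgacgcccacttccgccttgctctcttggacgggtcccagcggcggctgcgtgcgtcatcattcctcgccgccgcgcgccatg
Slc25a34: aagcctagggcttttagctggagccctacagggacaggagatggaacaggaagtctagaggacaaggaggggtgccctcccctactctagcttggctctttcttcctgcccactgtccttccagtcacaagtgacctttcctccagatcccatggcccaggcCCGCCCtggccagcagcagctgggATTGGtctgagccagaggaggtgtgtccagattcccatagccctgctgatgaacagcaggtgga
Slc25a42: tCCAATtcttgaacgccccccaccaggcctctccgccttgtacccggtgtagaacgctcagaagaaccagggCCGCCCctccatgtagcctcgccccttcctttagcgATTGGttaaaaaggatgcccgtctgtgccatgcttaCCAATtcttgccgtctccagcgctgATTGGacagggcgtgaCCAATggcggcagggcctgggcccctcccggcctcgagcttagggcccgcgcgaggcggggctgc

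In these windows 5 motifs were searched on both strands: the E-box CACGTG, the CCAAT box CCAAT, the GC box GGGCGG, the ERR motif TNAAGGTCA and the SREBP motif TCACNCCAC, none of which overlapped another in the sequences printed. The window of Slc25a1 held an E-box 239 to 234 bases before the start, a CCAAT box and 4 GC boxes. Slc25a42 held 5 CCAAT boxes and a GC box, Slc25a34 a CCAAT box and a GC box, Slc25a24 2 GC boxes, Slc25a45 1, and Slc25a16 none of the motifs. An E-box is held by 6.02% of all 32851 promoters in the table, a CCAAT box by 33.8%, a GC box by 32.7%, the ERR motif by 1.14% and the SREBP motif by 1.05%. Of the 29 carrier genes with an entry, 5 held an E-box, 16 a CCAAT box, 23 a GC box and 0 the ERR or SREBP motif. A carrier gene was counted if any promoter listed for it held the motif, while the shares over all promoters count single promoters. These counts and shares therefore differ in unit. A match describes letters only.

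Of the 3 carriers that serve ATP synthesis, 1 (Slc25a5) rose in BL6 and none passed in MRL. Among all genes tested, 67.9% passed in BL6 and 45% in MRL. Slc25a4 had 5894, 5966, 6252 and 6097 CPM in unoperated BL6 and 5436, 6274, 4621 and 2642 CPM after surgery. In MRL its samples had 5725, 5868, 5045 and 6103 CPM before and 5663, 5978, 4225 and 4191 CPM after surgery. The groups overlapped in both strains, with the lowest value in operated BL6 replicate 4. The log2 fold change was -0.35 ± 0.21 (SE) in BL6 (adjusted p = 0.156) and -0.18 ± 0.21 in MRL (adjusted p = 0.498). The BL6 difference passed only where operated BL6 replicate 2, its highest sample, was left out (-0.52, adjusted p = 0.0422).

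Slc25a3, which brings in the phosphate for ATP synthesis, had 913, 938, 1054 and 1005 CPM in unoperated BL6 and 966, 1053, 970 and 557 CPM in operated BL6. The MRL samples had 911, 1001, 895 and 1058 CPM before and 1011, 1039, 729 and 853 CPM after surgery. These groups overlapped, and the log2 fold changes of -0.14 ± 0.18 (SE, adjusted p = 0.490) and -0.09 ± 0.18 (adjusted p = 0.689) did not pass.

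Slc25a5 encodes the ATP/ADP translocase of proliferating and non-muscle cells. It had 20.1, 15.7, 14.4 and 17.4 CPM in unoperated BL6 and 32.2, 28.8, 20.7 and 27.0 CPM in operated BL6, with no overlap, and rose 1.61-fold (log2 0.69 ± 0.16 SE, adjusted p = 0.00159). In MRL the group means were 23.8 ± 4.37 and 27.2 ± 3.74 CPM (SD, n = 4), which overlapped (log2 0.19 ± 0.16, adjusted p = 0.329). The summed endothelial markers stood at 268 to 368 CPM before and 548 to 695 CPM after surgery in BL6, and at 203 to 288 and 292 to 726 CPM in MRL, and their part in the Slc25a5 values was not tested.

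Among the ATP-Mg/phosphate carriers, calcium-regulated proteins that adjust the adenine nucleotide pool of the matrix, Slc25a24 rose in both strains. Unoperated BL6 samples had 5.65, 3.76, 2.80 and 2.90 CPM and operated ones 7.06, 6.51, 6.69 and 11 CPM. Unoperated MRL samples had 6.42, 4.88, 5.10 and 6.47 CPM and operated ones 9.18, 7.63, 12.7 and 10.1 CPM. Neither strain's groups overlapped, and operated BL6 replicate 4 was the highest of its group. The rise was 2.08-fold in BL6 (log2 1.05 ± 0.24 SE, adjusted p = 0.00136) and 1.74-fold in MRL (0.80 ± 0.24, adjusted p = 0.0144). The MRL call was lost without operated MRL replicate 3, its highest sample (0.65, adjusted p = 0.0575). Slc25a23 stayed at group means of 27.2 to 30.6 CPM and did not pass. Slc25a25 ranged from 11.9 to 120 CPM within unoperated BL6 and from 36.5 to 192 within operated BL6, so its log2 fold change of 0.83 carried an SE of 0.62 (adjusted p = 0.247).

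The largest rise of the family was in Slc25a1, the citrate carrier, which exports the citrate that the cytosol uses to make fatty acids. Its unoperated BL6 samples had 6.01, 5.94, 4.94 and 4.44 CPM and its operated ones 9.89, 7.90, 21.2 and 51.9 CPM. In MRL the values were 10.03, 9.69, 6.97 and 12 CPM before and 16.6, 17, 38.7 and 51.7 CPM after surgery. The groups did not overlap in either strain, but the operated samples spread widely, with replicates 3 and 4 above replicates 1 and 2 in both. The rise was 4.28-fold in BL6 (log2 2.10 ± 0.51 SE, adjusted p = 0.00212) and 3.21-fold in MRL (1.68 ± 0.50, adjusted p = 0.0140). Without operated BL6 replicate 4, the library with the highest adipocyte sum, the BL6 rise was 2.43-fold (log2 1.28, adjusted p = 0.0112). The adipocyte marker sum also rose in both strains. It was mostly Fabp4, which had a mean of 1319 CPM in operated BL6, where the sums ran from 1358 to 2363 CPM. In operated MRL replicate 4 the sum (1490 CPM) and Fabp4 (903 CPM) were the lowest of their group. Adipoq (85.1 CPM), Adrb3, Cfd and Cidec were the highest of their group there, so the sum and these markers rank the libraries differently. The part of the adipocyte markers in the Slc25a1 rise was not tested.

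Slc25a10, the dicarboxylate carrier, had means of 6.47 ± 0.756 CPM before and 12 ± 7.02 CPM after surgery in BL6 (SD, n = 4) and passed there (log2 0.90 ± 0.34 SE, adjusted p = 0.0266), although the groups overlapped. Its BL6 call was lost without unoperated replicate 2 or 4, without operated replicate 4 (0.41, adjusted p = 0.199) and without the 3 libraries that stood apart (0.39, adjusted p = 0.130). In MRL its log2 fold change of 0.75 ± 0.34 did not pass (adjusted p = 0.0768), but it passed without those 3 libraries (0.66, adjusted p = 0.0272).

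Slc25a11, which exchanges oxoglutarate for malate in the malate-aspartate shuttle, had 374, 409, 423 and 426 CPM in unoperated BL6 and 336, 357, 375 and 229 CPM in operated BL6. In MRL it had 366, 425, 395 and 468 CPM before and 392, 360, 291 and 411 CPM after surgery. The groups overlapped in both strains, and neither the BL6 value of -0.33 ± 0.15 (SE, adjusted p = 0.0660) nor the MRL value of -0.19 ± 0.15 (adjusted p = 0.326) passed. The BL6 value passed with DESeq2 (-0.33, adjusted p = 0.0407) and without operated BL6 replicate 3 (-0.41, adjusted p = 0.0423), and the MRL value passed without the 3 libraries that stood apart (-0.32, adjusted p = 0.0364).

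Slc25a12, the aspartate/glutamate carrier of the same shuttle, fell in both strains. Unoperated BL6 samples had 620, 643, 772 and 774 CPM and operated ones 312, 423, 321 and 215 CPM, with no overlap. Unoperated MRL samples had 492, 667, 661 and 683 CPM and operated ones 319, 353, 255 and 504 CPM, where the lowest unoperated sample (replicate 1) lay below the highest operated sample (replicate 4). Both of these are libraries that stood apart. The fall was 2.21-fold in BL6 (log2 -1.15 ± 0.22 SE, adjusted p = 0.000351) and 1.75-fold in MRL (-0.81 ± 0.22, adjusted p = 0.00862). Slc25a22, a glutamate carrier, did not pass in either strain (-0.27 and -0.22). The muscle fibre marker sum was also lower in each operated MRL sample than in any unoperated one. In BL6 these sums overlapped, at 129576 to 163458 CPM before and 61092 to 159791 CPM after surgery. Of the 9 fibre markers, 3 fell and 1 rose in BL6, and 3 fell and 0 rose in MRL. Among all genes tested, 32.8% fell in BL6 and 22.7% in MRL. The part of the fibre markers in the fall of Slc25a12 was not tested.

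Slc25a20, which brings acylcarnitines into the matrix for fatty acid oxidation, fell in both strains. Its mean went from 109 ± 17.4 to 63.6 ± 11.3 CPM in BL6 (SD, n = 4) without overlap, a 1.72-fold fall (log2 -0.78 ± 0.16 SE, adjusted p = 0.000649). The MRL means were 84.3 ± 9.71 CPM before and 57.6 ± 11.2 CPM after surgery, and the groups overlapped, a 1.46-fold fall (-0.55 ± 0.16, adjusted p = 0.0133). The MRL call was lost without operated MRL replicate 3.

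Of the 5 carriers tested for other amino acids and S-adenosylmethionine, 3 fell in BL6 and 4 in MRL, and none rose in either. Among all genes tested, 32.8% fell in BL6 and 22.7% in MRL, and a list of 5 genes is too short to set against these shares. Slc25a44, which imports branched-chain amino acids, fell 1.95-fold in BL6 (38.4 ± 3.62 to 19.6 ± 1.84 CPM, SD, n = 4, adjusted p = 0.000336) and 1.68-fold in MRL (35.4 ± 5.39 to 21.1 ± 7.25 CPM, adjusted p = 0.0056). Slc25a26, the carrier of the methyl donor S-adenosylmethionine, fell 1.95-fold and 1.54-fold, and Slc25a15, the ornithine carrier, 1.42-fold and 1.35-fold. For both genes the groups did not overlap in either strain. Slc25a29, a carrier of basic amino acids, did not pass (-0.35 and -0.44 on the log2 scale, adjusted p = 0.104 and 0.0663); the MRL value passed without the 3 libraries that stood apart (-0.57, adjusted p = 0.0165).

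Slc25a38, a glycine carrier that serves heme synthesis, had 12.1, 15.6, 16.6 and 14.4 CPM in unoperated BL6 and 15.3, 13.6, 16.1 and 17.6 CPM in operated BL6. In MRL the samples had 10.8, 11.7, 11.3 and 11.9 CPM before and 9.22, 8.32, 7.42 and 10.4 CPM after surgery, without overlap. The MRL fall of 1.29-fold passed (log2 -0.37 ± 0.12 SE, adjusted p = 0.0260) and was lost in turn without unoperated MRL replicate 2, 3 or 4 or operated MRL replicate 2 or 3, with adjusted p between 0.0528 and 0.0902, and with total-count scaling (-0.31, adjusted p = 0.190). This MRL call was kept without the 3 libraries that stood apart (-0.50, adjusted p = 0.00559). The BL6 value of 0.09 ± 0.12 did not pass (adjusted p = 0.503).

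The cofactor and nucleotide carriers moved in both directions: of 10 tested, 2 rose and 5 fell in each strain. Among all genes tested, 35.1% rose and 32.8% fell in BL6, and 22.3% rose and 22.7% fell in MRL. Slc25a16, a carrier linked to coenzyme A, showed the largest fall of the family in BL6. Its unoperated BL6 samples had 31.1, 32.9, 31.6 and 30.2 CPM and its operated ones 10.1, 10.7, 9.77 and 7.88 CPM. In MRL the values were 24, 34.9, 36.8 and 34.9 CPM before and 12.1, 13.2, 11.7 and 27.6 CPM after surgery. The BL6 groups were far apart, while in MRL unoperated replicate 1 lay below operated replicate 4. The fall was 3.27-fold in BL6 (log2 -1.71 ± 0.23 SE, adjusted p = 3.61e-05) and 2.01-fold in MRL (-1.01 ± 0.23, adjusted p = 0.00391). Without the 3 libraries that stood apart the MRL value was -1.54 (adjusted p = 7.43e-08).

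Slc25a42, which exchanges coenzyme A for adenine nucleotides, fell as well. Its unoperated BL6 samples had 64.9, 72.0, 81.1 and 78.5 CPM and its operated ones 36.4, 36.5, 34.8 and 24.9 CPM, without overlap. In MRL the values were 48.1, 62.4, 66.0 and 69.3 CPM before and 31.7, 40.5, 21.7 and 51.1 CPM after surgery, with the same 2 MRL libraries crossing. The fall was 2.24-fold in BL6 (log2 -1.16 ± 0.21 SE, adjusted p = 0.000237) and 1.69-fold in MRL (-0.76 ± 0.21, adjusted p = 0.00958).

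Slc25a51, the NAD carrier, fell 1.88-fold in BL6 (71.6 ± 4.44 to 38.1 ± 4.48 CPM, SD, n = 4, adjusted p = 7.84e-05) and 1.46-fold in MRL (adjusted p = 0.00688). Slc25a32, a folate or FAD carrier, had 17.4, 17.6, 16.8 and 19.0 CPM in unoperated BL6 and 10.6, 11.2, 9.31 and 10.04 CPM in operated BL6. In MRL it had 15.4, 19.3, 21.4 and 19.6 CPM before and 12.6, 12.4, 12.4 and 15.9 CPM after surgery, again with replicates 1 and 4 crossing. It fell 1.72-fold in BL6 (log2 -0.79 ± 0.11 SE, adjusted p = 5.53e-05) and 1.42-fold in MRL (-0.51 ± 0.11, adjusted p = 0.00387).

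Slc25a17, the peroxisomal carrier of coenzyme A and related cofactors, rose by nearly the same factor in each strain from unequal starting levels. In BL6 the samples had 12.4, 14.6, 12.4 and 13.6 CPM before and 26.8, 21.8, 21.4 and 18.9 CPM after surgery. In MRL they had 5.69, 5.55, 5.35 and 5.20 CPM before and 9.66, 8.60, 9.02 and 8.37 CPM after surgery. No groups overlapped, and the rise was 1.68-fold in BL6 (log2 0.75 ± 0.11 SE, adjusted p = 4.84e-05) and 1.64-fold in MRL (0.71 ± 0.11, adjusted p = 0.000682).

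Slc25a36, a pyrimidine nucleotide carrier, rose 1.90-fold in BL6 (44.2 ± 7.06 to 83.9 ± 12.3 CPM, SD, n = 4, adjusted p = 2.78e-05) and 1.64-fold in MRL (48.4 ± 0.693 to 79.3 ± 4.98 CPM, adjusted p = 0.00101), without overlap in either. Slc25a33, the other pyrimidine nucleotide carrier measured, did not pass (log2 -0.07 and -0.51, adjusted p = 0.832 and 0.125); its MRL value passed without the 3 libraries that stood apart (-0.74, adjusted p = 0.0155). The glutathione-linked carriers differed from each other in BL6. Slc25a39 had 72.5, 70.1, 80.6 and 71.8 CPM before and 58.5, 73.9, 60.1 and 67.9 CPM after surgery in BL6, and 67.1, 76.7, 62.7 and 79.6 CPM before and 60.6, 76.7, 76.2 and 70.4 CPM after surgery in MRL. Its groups overlapped, with log2 values of -0.18 ± 0.11 (SE, adjusted p = 0.159) and -0.01 ± 0.11 (adjusted p = 0.940). Slc25a40 had 5.05, 4.93, 4.68 and 4.84 CPM in unoperated BL6 and 3.27, 3.22, 3.40 and 4.18 CPM in operated BL6, and fell 1.38-fold (log2 -0.47 ± 0.13, adjusted p = 0.00412). That call was lost when samples were scaled by total counts alone (-0.31, adjusted p = 0.173). In MRL its values were 7.15, 8.08, 9.16 and 9.70 CPM before and 8.61, 7.98, 8.63 and 8.71 CPM after surgery, which overlapped (-0.01 ± 0.12, adjusted p = 0.969).

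**Figure D3:**
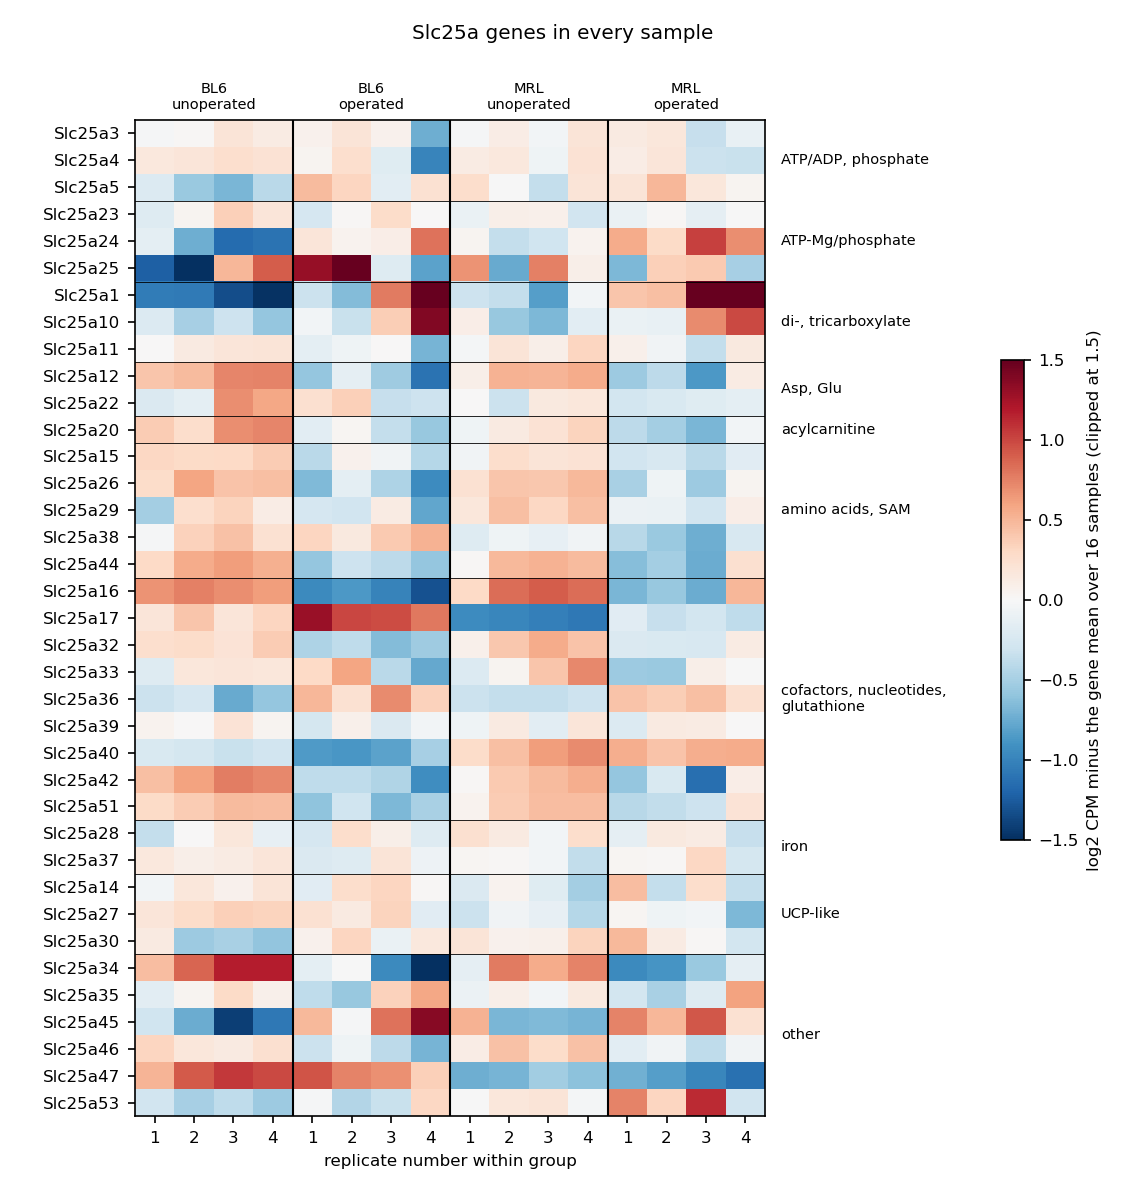
Log2 CPM of 37 of the 38 Slc25a genes in each of the 16 samples minus the gene's mean over all samples (colour, clipped at 1.5), with genes grouped by substrate. Slc25a16 is below its mean in the 4 operated BL6 samples (7.88 to 10.7 CPM) and in 3 of the 4 operated MRL samples, and above it in operated MRL replicate 4 (27.6 CPM).

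Neither iron carrier passed: the mitoferrins Slc25a28 and Slc25a37 had log2 values between -0.21 and 0.12 in the 2 strains. Of the 3 genes similar to uncoupling proteins, Slc25a30 rose 1.38-fold in BL6 (5.56 ± 1.44 to 7.67 ± 0.939 CPM, SD, n = 4, adjusted p = 0.0343), with overlapping groups, and had a log2 value of -0.06 in MRL. Its BL6 call held in 19 of 26 alternatives and was lost with only the 2 groups compared, without unoperated BL6 replicate 2, 3 or 4, without operated BL6 replicate 2 or 4, and without the 3 libraries that stood apart, with adjusted p of 0.0567 or more in each of these. Slc25a14 did not pass in either strain. Slc25a27 had 18.6, 19.8, 20.8 and 20.6 CPM before and 19.1, 17.9, 20.6 and 14.5 CPM after surgery in BL6, and 13.1, 15.7, 15 and 12.2 CPM before and 16.6, 15.6, 15.9 and 10.2 CPM after surgery in MRL. Its groups overlapped, and log2 values of -0.15 ± 0.15 and 0.06 ± 0.15 (SE) did not pass (adjusted p = 0.381 and 0.760).

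Genes with other or unsettled substrates held the second largest rise and the second largest fall in BL6. Slc25a45 had 3.36, 2.47, 1.56 and 1.98 CPM in unoperated BL6 and 5.81, 4.11, 7.27 and 10.7 CPM in operated BL6. In MRL it had 5.93, 2.58, 2.61 and 2.55 CPM before and 6.94, 5.86, 7.92 and 4.84 CPM after surgery, where unoperated replicate 1 lay among the operated samples. The rise was 2.99-fold in BL6 (log2 1.58 ± 0.34 SE, adjusted p = 0.000931) and 1.87-fold in MRL (0.90 ± 0.34, adjusted p = 0.0392). The MRL call was lost without any 1 of unoperated replicates 2 to 4 or operated replicates 1 to 3 of MRL (adjusted p between 0.0555 and 0.110) and with total-count scaling (adjusted p = 0.0854). It was kept without the 3 libraries that stood apart (log2 1.41, adjusted p = 0.000509).

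Slc25a34, a carrier of unsettled substrate, had 21.4, 28.6, 35.1 and 35.1 CPM in unoperated BL6 and 14.1, 15.5, 8.02 and 3.92 CPM in operated BL6. In MRL it had 14.2, 26.7, 22.8 and 26.1 CPM before and 8.04, 8.46, 10.5 and 14.2 CPM after surgery. The BL6 groups did not overlap, and in MRL only unoperated replicate 1 and operated replicate 4 met. The fall was 2.91-fold in BL6 (log2 -1.54 ± 0.34 SE, adjusted p = 0.00109) and 2.17-fold in MRL (-1.12 ± 0.34, adjusted p = 0.0153). Slc25a46, the outer-membrane protein, fell 1.48-fold in BL6 (66.8 ± 3.84 to 45.1 ± 8.06 CPM, SD, n = 4, adjusted p = 0.00104) and 1.39-fold in MRL (adjusted p = 0.00802), without overlap. Slc25a35, Slc25a47 and Slc25a53 did not pass in either strain, although Slc25a53 passed in MRL without the 3 libraries that stood apart (0.64, adjusted p = 0.0181).

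**Figure D4:**
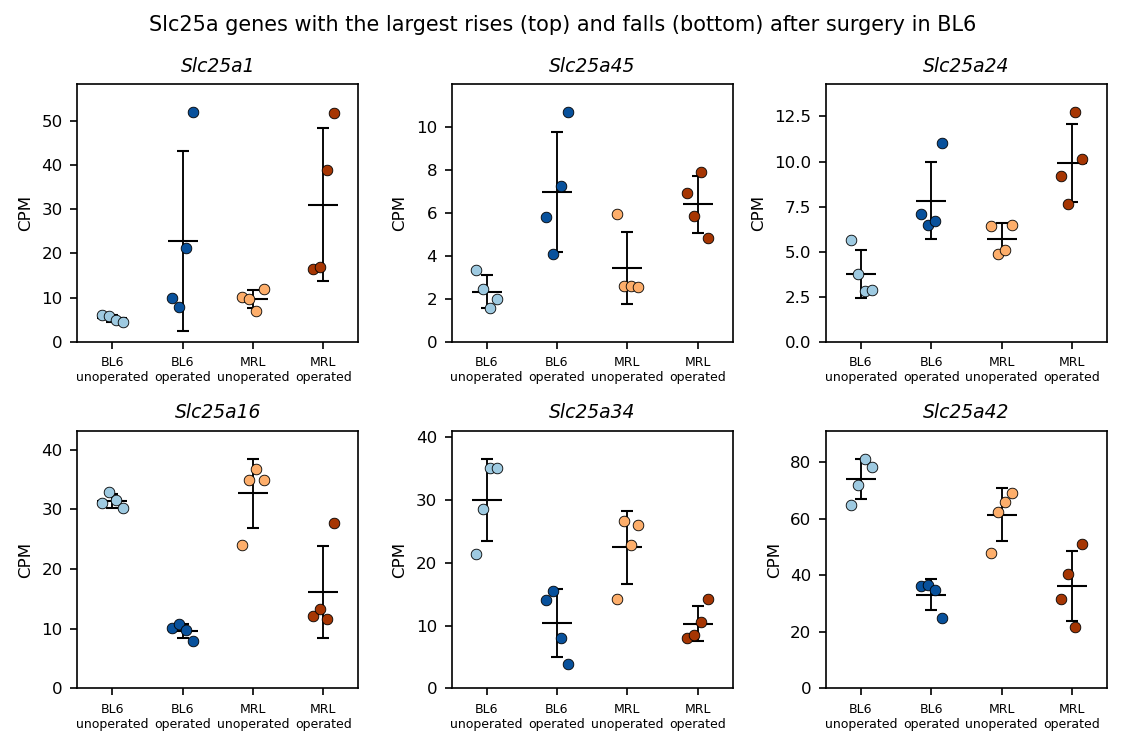
CPM of the 3 Slc25a genes that rose most and the 3 that fell most after surgery in BL6, 1 point per sample, with the group mean and SD as bars (n = 4). Slc25a1 reaches 51.9 CPM in operated BL6 and 51.7 in operated MRL against at most 12 in unoperated samples, and the Slc25a16 values of unoperated and operated BL6 lie apart (30.2 to 32.9 against 7.88 to 10.7 CPM).

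Whether the surgery effect differed between strains was tested as an interaction, and no carrier gene passed, against 0.248% of all genes tested. At an unadjusted p under 0.05 there were 4 of the 38 (Slc25a5, Slc25a16, Slc25a38 and Slc25a40), beside 1843 of all 11709 genes tested. The lowest adjusted p of a carrier, that of Slc25a38, was 0.240. DESeq2 and limma voom also called 0. All 16 carrier genes called in both strains had the larger absolute log2 fold change in BL6, as did 83.4% of all genes called in both. None of the 16 differences passed, and the pattern depended on the 3 libraries that stood apart. Only those of the 16 whose values are given for every sample are sorted here. Without those libraries the larger value was in MRL for Slc25a1, Slc25a12, Slc25a24, Slc25a34 (-1.30 in BL6, -1.49 in MRL), Slc25a42 and Slc25a45. It stayed in BL6 for Slc25a16, Slc25a17 and Slc25a32. The interaction values ran from -1.16 (Slc25a25) to 0.70 (Slc25a16) on the log2 scale. The calls made in only one strain, such as Slc25a5 in BL6 or Slc25a38 in MRL, are therefore not shown to differ between the strains.

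The strains themselves differed in few carriers. Among unoperated samples 4 of the 38 passed (1 higher and 3 lower in MRL), 10.5% against 10.4% of all genes tested (5.02% higher, 5.36% lower), and with total-count scaling the split was 2 and 2. The count was 8 (4 higher, 4 lower) without unoperated BL6 replicate 1, and also when only the 2 groups compared were fitted. With only those 2 groups fitted, 2438 of 11700 genes tested passed, against 1216 in the main fit. Leaving out 1 sample at a time gave 821 to 1572 over all genes. Among operated samples 6 passed (3 higher, 3 lower), 15.8% against 12.9% of all genes (7.6% higher, 5.27% lower). Both shares were near the background. Slc25a17, Slc25a47 and Slc25a40 passed in both states, and for each the BL6 and MRL samples did not overlap in either state.

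Slc25a47, which is best known from liver, had 7.63, 10.1, 11.2 and 10.7 CPM in unoperated BL6 and 3.24, 3.30, 3.74 and 3.49 CPM in unoperated MRL. Operated samples had 10.3, 8.99, 8.66 and 6.88 CPM in BL6 and 3.25, 3.02, 2.73 and 2.47 CPM in MRL. It was 2.88-fold lower in unoperated MRL (log2 -1.52 ± 0.15 SE, adjusted p = 3.92e-06) and 3.04-fold lower in operated MRL (-1.60 ± 0.16, adjusted p = 2.82e-06). Surgery itself left it at log2 values of -0.19 ± 0.15 in BL6 (adjusted p = 0.273) and -0.27 ± 0.16 in MRL (adjusted p = 0.170).

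With the sample values given above, the peroxisomal carrier Slc25a17 was 2.43-fold lower in unoperated MRL than in unoperated BL6 (log2 -1.28 ± 0.11 SE, adjusted p = 5.99e-07) and 2.49-fold lower in operated MRL (-1.32 ± 0.11, adjusted p = 4.11e-07). Operated MRL samples (8.37 to 9.66 CPM) stayed below unoperated BL6 samples (12.4 to 14.6 CPM). Slc25a40 ran the other way. It was 1.75-fold higher in unoperated MRL (log2 0.81 ± 0.12, adjusted p = 0.000326) and 2.41-fold higher in operated MRL (1.27 ± 0.13, adjusted p = 3.5e-06). Each of these 6 calls was kept in all 26 alternatives tried. The alternatives changed the scaling, filter, model or samples and not the mapping of reads. Whether reads of the 2 strains mapped equally well was not tested, and Slc25a40 has a near-identical stretch in the pseudogene Gm5066.

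Other strain differences passed in 1 state. In operated samples Slc25a38 was 1.77-fold lower in MRL (8.85 ± 1.28 against 15.7 ± 1.66 CPM, SD, n = 4, adjusted p = 0.000296). In unoperated samples Slc25a38 was also lower in MRL without overlap, but did not pass (log2 -0.36, adjusted p = 0.0744). That unoperated difference passed in 4 of 26 alternatives, so it is not shown to be limited to operated muscle. Slc25a27 was 1.43-fold lower in unoperated MRL (14 ± 1.66 against 19.9 ± 1.02 CPM, adjusted p = 0.0353), a call lost without unoperated BL6 replicate 2, 3 or 4, without unoperated MRL replicate 1 or 4, and with total-count scaling, with adjusted p between 0.0729 and 0.114. Slc25a16 was 1.69-fold higher in operated MRL (log2 0.76, adjusted p = 0.0434). Without operated MRL replicate 4 its value was 0.35 (adjusted p = 0.113). Slc25a32 was 1.30-fold higher in operated MRL (log2 0.38, adjusted p = 0.0422), and 0.27 without that library (adjusted p = 0.134). These calls held in 12 and 8 of the 26 alternatives, with adjusted p up to 0.177 and 0.161.

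**Figure D5:**
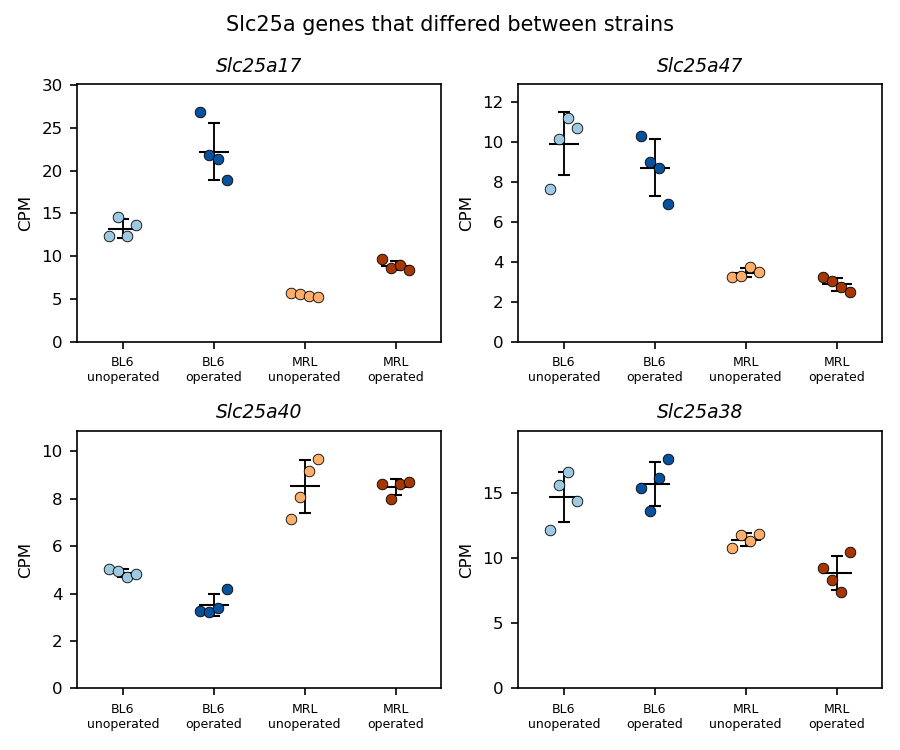
CPM of 4 Slc25a genes that differed between strains, 1 point per sample, with the group mean and SD as bars (n = 4). Slc25a17 and Slc25a47 are lower and Slc25a40 higher in MRL in both states without overlap, and Slc25a38 is lower in operated MRL (7.42 to 10.4 CPM) than in operated BL6 (13.6 to 17.6 CPM).

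Ratios of the CPM (not per length) of carriers that share a substrate were formed within each sample, which removes the library scaling. In all, 24 tests were made with a two-sided exact permutation test, and no adjusted p fell below 0.0857, so none passed. In this test 4 samples against 4 allow no p below 0.0286. A test at that floor passes the adjustment only if many of the 24 reach it, so this outcome does not show that the ratios were unchanged. The ratio of Slc25a5 to Slc25a4, the 2 ATP/ADP translocases, went from 0.00230 to 0.00341 in unoperated BL6 to 0.00448 to 0.0102 in operated BL6, a 2.15-fold difference with no overlap (log2 1.10, exact p = 0.0286). In MRL it differed 1.32-fold (log2 0.40, exact p = 0.0571). Slc25a36 to Slc25a33 differed 2.12-fold in BL6 (exact p = 0.0571) and 2.32-fold in MRL (exact p = 0.0286). Slc25a16 to Slc25a42, both linked to coenzyme A, ran from 0.384 to 0.478 in unoperated and from 0.277 to 0.317 in operated BL6 (exact p = 0.0286). In MRL this ratio overlapped, at 0.499 to 0.559 in unoperated and 0.326 to 0.541 in operated samples (exact p = 0.286). Between strains, Slc25a40 to Slc25a39 was 1.80-fold higher in unoperated and 2.22-fold higher in operated MRL (exact p = 0.0286 in each).

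Genes that work beside the carriers were read from fixed lists. Of 11 tested genes of carrier import by the TIM22 route, 5 rose and 2 fell in BL6, and 2 rose and 3 fell in MRL; of all genes tested, 35.1% rose and 32.8% fell in BL6, and 22.3% rose and 22.7% fell in MRL. Timm10b and Timm13, small chaperones of the space between the membranes, rose (log2 1.21 and 0.78 in BL6, 0.81 and 0.50 in MRL). Timm29, a subunit of the TIM22 complex, and Tomm70a, the outer-membrane receptor for carriers, fell (-1.01 and -0.82 in BL6, -0.74 and -0.53 in MRL). These 4 passed in both strains.

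Of 25 other tested genes of mitochondrial membrane transport, 7 rose and 8 fell in BL6, and 7 rose and 4 fell in MRL, beside the same shares of all genes tested. Ucp2, an uncoupling protein of the same carrier family under another symbol, rose from 14.8 ± 3.99 to 63.3 ± 19.3 CPM in BL6 (SD, n = 4, log2 2.10) and from 40.7 ± 27.0 to 90.6 ± 21.8 CPM in MRL (log2 1.15). It is also expressed by leukocytes, whose marker sum was 38.3 to 142 CPM in unoperated and 83.4 to 528 CPM in operated BL6, and their part in this rise was not tested. Tspo, an outer-membrane protein, rose (log2 1.83 and 1.05), as did the serine transporter Sfxn1 (1.60 and 1.01).

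Of 15 tested enzymes that act on the carried substrates, 2 rose and 9 fell in BL6, where 35.1% of all genes rose and 32.8% fell. In MRL 2 rose and 5 fell, where the background was 22.3% and 22.7%. Acly, which splits the citrate that Slc25a1 exports, rose from 21.4 ± 1.89 to 48.9 ± 20.2 CPM in BL6 (SD, n = 4, log2 1.19, adjusted p = 0.000566) and from 21.9 ± 2.20 to 41.8 ± 12.9 CPM in MRL (log2 0.94, adjusted p = 0.00733). Oat, the ornithine aminotransferase of the matrix, fell (log2 -1.27 and -0.93). Cpt1b, which makes the acylcarnitines that Slc25a20 imports, fell (-0.96 and -0.59), as did the malic enzyme Me1 (-1.03 and -0.70). All 4 passed in both strains.

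In the authors' deposited table of edgeR comparisons, 18 carrier genes had a false discovery rate under 0.05 after surgery in BL6, and all 18 are among the 20 called here, in the same direction. The authors' deposited table called 21 in MRL, the 18 called here and Slc25a10, Slc25a29 and Slc25a33. Between strains the authors' deposited table called 3 genes in unoperated and 4 in operated samples, all called here in the same direction, and it did not call Slc25a27 in the first or Slc25a16 and Slc25a32 in the second. Both sets of calls come from the same samples, so their overlap is not independent support. The share of all genes called in the authors' deposited table was not counted.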

How the data were processed

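RNA was sequenced in 16 samples in 4 groups of 4, assigned from the strain and surgical group in the labels, with replicate numbers from the titles. The deposited table holds raw counts per gene, judged from its whole numbers, and the submitters' processing notes name FastQC, STAR, edgeR and the build mm10 without roles or versions. The counting program, annotation and use of strand are not given in the sources used here. A second table deposited by the authors gives log2 fold changes and average log2 CPM, and, per the file headers, p-values and false discovery rates.

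The counts were tested with edgeR 4.0.16 (R 4.3.3): TMM scaling, filterByExpr at a minimum count of 10 (11709 genes tested), 1 mean per group over all 16 samples, the quasi-likelihood F test, and Benjamini-Hochberg adjustment over all genes tested, called at an adjusted p under 0.05. SE is the absolute log2 fold change divided by the square root of F. CPM use TMM-scaled library sizes, and CPM per kb the union of exons in GENCODE M21. Promoters and motifs came from RefSeq sequence. The scripts were tested on simulated data. DESeq2 1.42.0, limma 3.58.1 voom and other scalings, filters and sample sets were tried as alternatives.

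Members and lists were chosen with earlier results of these data known. Values of every sample are given for the called genes that moved farthest in a comparison (up to 3 each way) and the 5 highest per length (Slc25a5 was added after its values were seen), and up to 4 genes per partner list with the largest called change in BL6. Replicates of a group differed by more than sampling noise (lowest chi-square per gene 14.8 over 24 pairs), so each counted as 1 sample. The values of 1 carrier gene and 1 partner gene, which stay in the counts, are not reported here.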

Additional observations from a re-analysis of the deposited data

Results flagged for a closer look

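Of the 152 sets of 4 samples (38 genes in 4 groups), 13 had a highest or lowest sample that lay far from the other 3 by Dixon's criterion at the 95% level, and chance alone gives about 1 in 20. The share over all genes in these libraries was not counted, so the 13 are not shown to be particular to the carriers. Most of the 13 sets involve the libraries that stood apart. In unoperated MRL replicate 1, Slc25a12 was low at 492 CPM against 661 to 683 in the others, Slc25a16 at 24 against 34.9 to 36.8, and Slc25a44 at 27.4 against 37.6 to 38.8, while Slc25a45 was high at 5.93 against 2.55 to 2.61. In operated MRL replicate 4, Slc25a16 was high at 27.6 CPM against 11.7 to 13.2, Slc25a32 at 15.9 against 12.4 to 12.6 and Slc25a51 at 62.4 against 40.6 to 43.5, while Slc25a27 was low at 10.2 against 15.6 to 16.6. In operated BL6 replicate 4, Slc25a24 was high at 11 CPM against 6.51 to 7.06 and Slc25a42 low at 24.9 against 34.8 to 36.5.

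The remaining 3 sets concern other samples. In unoperated BL6 replicate 1, Slc25a30 was high at 7.72 CPM against 4.68 to 5.02 and Slc25a33 low at 17.1 against 22 to 22.3. In operated MRL replicate 2, Slc25a40 was low at 7.98 CPM against 8.61 to 8.71, a gap that is small in size.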

How the results depend on the processing

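The number of carrier genes called stayed within 1.5 times its value in every alternative for surgery in BL6 and MRL and for strain in operated samples. Leaving out 1 sample at a time gave 18 to 24 (surgery in BL6), 14 to 20 (surgery in MRL), 0 (interaction), 3 to 8 (strain, unoperated) and 4 to 6 (strain, operated); strain in unoperated samples reached 8 without unoperated BL6 replicate 1, and also 8 when only the 2 groups compared were fitted. Over all genes, the interaction gave 29 calls, 14 with total counts alone, 250 with DESeq2, 67 without the 3 libraries that stood apart, and 1 to 69 leaving out 1 sample; surgery in MRL gave 3490 to 6145 leaving out 1 sample, the lowest without operated MRL replicate 3. With only the 2 groups compared, strain gave 2438 calls in unoperated and 575 in operated samples, against 1216 and 1507.

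With the replicate number as a block, 20, 18, 0, 5 and 4 carrier genes and, in the interaction, 2 genes of the whole table were called, and Slc25a16 and Slc25a32 lost their strain call in operated samples. The numbers come from titles only: 12 of 24 same-number pairs had correlated deviations over 0.1 (range -0.474 to 0.453), and the own number matched best in 7, so the samples share only a number.

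Total-count scaling moved the median of all genes by 0.14 for surgery in BL6 and for strain in unoperated samples, and split the strain calls of all genes 742 higher and 313 lower (588 and 628 with TMM) in unoperated and 994 and 383 (890 and 617) in operated samples. Of 1144 gene values (44 results in 26 alternatives), 1072 kept direction and call, 53 lost the call, 4 gained one and 15 changed sign. All 15 were near 0 and not called: Slc25a40 in MRL (0.0495 total counts, 0.0226 stricter filter, 0.00296 voom, -0.0748 to 0.0627 leaving out 1 sample), Slc25a39 in MRL (0.0446 total counts, 0.0176 stricter filter, -0.0669 to 0.0570 leaving out 1 sample), and, leaving out 1 sample, Slc25a27 in MRL (-0.0118 to 0.197) and Slc25a3 in BL6 (-0.234 to 0.0214) and MRL (-0.161 to 0.00236). The cause of these changes was not tested. No carrier gene lay near the level of 3 counts (at most 0.123 CPM), and the 4 samples per group limit the precision.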
